A study of Mus musculus with 12 samples.

Results

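The protein kinase C (PKC) family was followed here through 8 genes of the mouse hippocampus: the classical isoforms Prkca and Prkcb, the nPKC isoforms Prkcd, Prkce, Prkch and Prkcq, and the atypical isoforms Prkci and Prkcz. They were picked by symbol, matched to the gene identifiers of the count table, and all 8 were found among its 27179 genes and passed the filter on low counts. Hippocampal RNA came from 12 animals at 3 months of age. Each genotype, Nell-1+/6R or WT littermate, was represented by 3 males and 3 females. The 6R allele is a chemically induced loss-of-function mutation of Nell-1, carried on 1 chromosome copy in every cell, since homozygotes die at birth. The labels give no treatment, and by the study's methods the mice were anesthetized before the tissue was taken. Library totals ran from 10834905 to 16016317 counts. Nell1 itself, the check of the genotype labels, was 30.6 to 44.0 CPM (counts scaled to library size) in WT and 17.2 to 20.8 CPM in Nell-1+/6R mice, with no overlap. The labels treat every mouse as a separate sample.

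PKC isoforms are serine and threonine kinases that carry signals from receptors at the cell membrane. The classical isoforms need both calcium and diacylglycerol, the lipid released when phospholipase C is switched on by Gq-coupled or tyrosine kinase receptors; the nPKC isoforms answer to diacylglycerol without calcium; the atypical isoforms answer to neither and work in protein complexes such as the one that sets cell polarity. In the hippocampus PKC is known for its part in transmitter release, receptor trafficking and long-term potentiation, and Prkcz has an internal start in neurons that gives the shortened, always active kinase known as PKM zeta.

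In WT hippocampus Prkcb and Prkce held the highest levels of the 8 genes. Levels between genes were compared as CPM per kilobase of summed exons. Prkcb, a classical isoform abundant in forebrain neurons, stood at 125 ± 15.5 (SD, n = 6) and Prkce, an nPKC isoform found in nerve terminals, at 109 ± 6.94 (SD, n = 6). They made up 40.5% and 35.1% of the summed level of the 8 genes. Among the 15976 tested genes with a length, 98.7% were below Prkcb and 98.4% below Prkce. The ranges of the pair overlapped, 109 to 144 against 96.0 to 115, and 1 of 6 WT mice had Prkce above Prkcb.

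**Figure D1:**
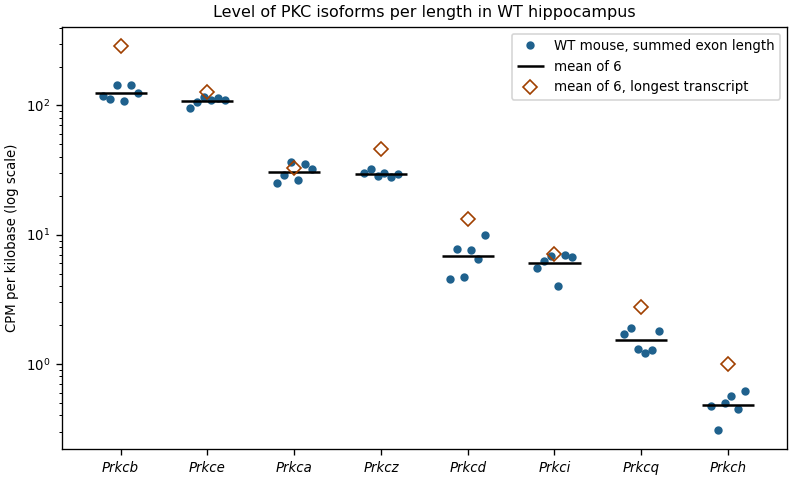
Level of each PKC isoform in WT hippocampus in CPM per kilobase (log scale), with 1 point for each of 6 WT mice, a bar at their mean and a diamond for the mean computed with the longest annotated transcript. By summed exons the genes fall into 5 steps: Prkcb with Prkce, Prkca with Prkcz, Prkcd with Prkci, and then Prkcq and Prkch, each on its own. With the longest transcript the paired genes no longer overlapped.

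Prkca, the most widely expressed classical isoform, and Prkcz formed the next step at 30.7 ± 4.72 and 29.7 ± 1.39 CPM per kilobase (SD, n = 6). Their ranges overlapped, and 3 of 6 WT mice had the reverse order. Prkcd, an nPKC isoform tied to stress and cell death signalling, and Prkci, the atypical isoform of the polarity complex, followed at 6.84 ± 2.05 and 6.05 ± 1.13 (SD, n = 6), again with overlapping ranges and the reverse order in 3 of 6 mice. Prkcq, the isoform of T cell receptor signalling, reached 1.54 ± 0.306 and Prkch, an nPKC isoform best known from epithelia, 0.485 ± 0.107 (SD, n = 6). These last 2 overlapped with no neighbour. Every WT mouse placed Prkcq 7th and Prkch 8th. Prkch was counted 30 to 63 times per mouse, so its values carry the largest counting error of the family.

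Dividing by the longest annotated transcript instead of the summed exons moved Prkcz to 46.0 CPM per kilobase, above Prkca at 32.9, and left the other places as they were. The WT ranges that overlapped by summed exons no longer did. The lowest Prkcb was 250 against a highest Prkce of 134, and the lowest Prkcz 43.5 against a highest Prkca of 39.3. For Prkcd the lowest was 8.83, and the highest Prkci was 8.19. The summed exons of Prkcb, 7651 bases, are far longer than its longest transcript of 3328 bases, so its level per kilobase depended most on that choice, at 287 with the longest transcript. By class, the 2 classical genes held 50.3 ± 2.76% of the summed level in WT and 50.9 ± 2.34% in mutant hippocampus (SD, 6 mice a genotype). The 4 nPKC genes held 38.1 ± 2.09% and 37.9 ± 1.32%, and the 2 atypical genes 11.7 ± 1.04% and 11.2 ± 1.18%. The spread of each class overlapped between genotypes. With the longest transcript the WT shares were 61.8 ± 2.81% for the classical, 27.8 ± 2.04% for the nPKC and 10.4 ± 1.04% for the atypical genes (SD, n = 6).

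The table counts each gene as a whole, so the full-length and the shortened Prkcz transcripts were pooled. No stretch of 50 bases was shared between transcripts of the 8 genes, and Prkca and Prkcd shared none with any other gene. Of the 50-base stretches of Prkcz, 14.8% also occur in its processed pseudogene Prkcz2, which has no row in the table. The share was 5.47% for Prkce and 4.47% for Prkcq, with stretches found in 199 and 171 other genes. Apoh lies on the opposite strand and shares 30 exon bases with Prkca, with 41 counts over all 12 mice. Prkce shares 472 exon bases with AC154542.1, which is not in the table, and overlaps 2010106C02Rik, which had 21 counts, outside its exons. The labels and methods do not state whether reads were counted by strand.

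The question put to the genotypes was whether losing 1 working copy of Nell-1 shifted the RNA of any isoform. No isoform was called. Of the 8 genes, 4 had a higher and 4 a lower estimate in Nell-1+/6R mice, with log2 fold changes from -0.12 to 0.10, and the median was 0.03 beside -0.00 over all 17937 genes tested. None passed an adjusted p of 0.05 in edgeR's quasi-likelihood test with Benjamini-Hochberg adjustment, a call made for 0.039% of all genes tested. None passed the thresholds of the study's methods, an unadjusted p under 0.05 with a fold above 1.5, passed by 1.46% of genes, and none had an unadjusted p under 0.05, as 3.26% of genes did. DESeq2 and limma-voom with sex also gave 0 of 8 by each of these rules.

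**Figure D2:**
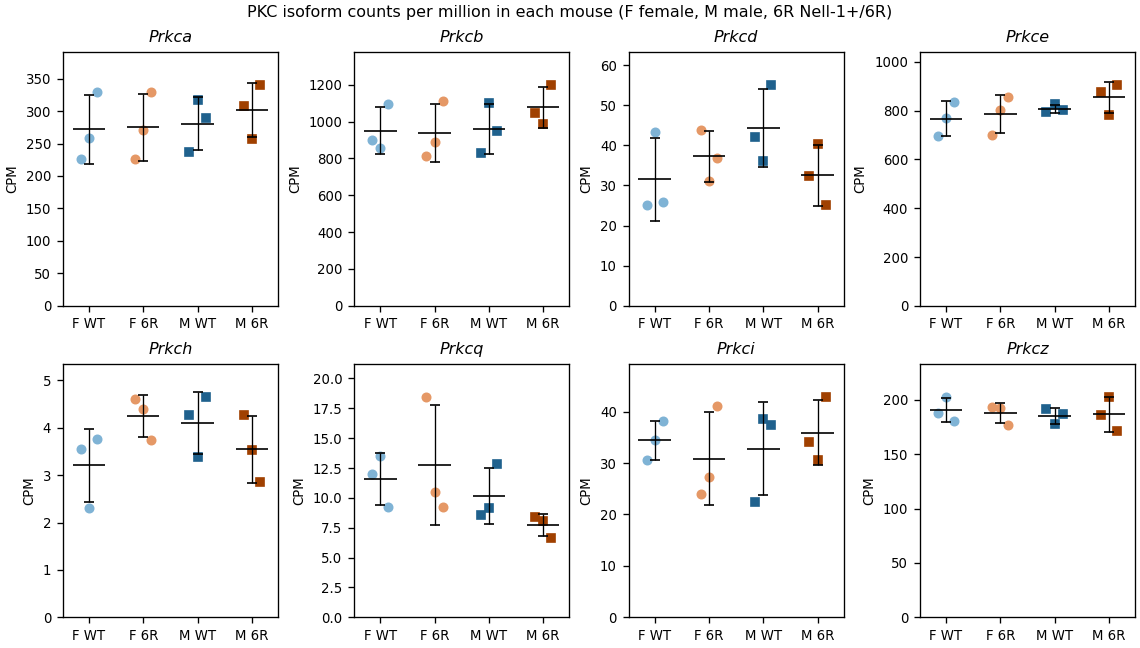
CPM of the 8 PKC isoforms in each of 12 mice (F, female; M, male; 6R, Nell-1+/6R), with 3 points, the mean and the SD for each sex and genotype, and all axes from 0. WT and Nell-1+/6R mice overlap for every isoform, and the points of Prkcd and Prkcq scatter most relative to their level.

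Among the classical genes, Prkca (chr11:107933387-108343888, GRCm38) was 227, 274 and 330 CPM (lowest, median, highest) in WT and 226, 290 and 340 CPM in Nell-1+/6R mice. The ranges lay almost on top of each other. The log2 fold change was 0.06 (SE 0.11), with a 95% confidence interval from -0.18 to 0.31. Prkcb was 831, 925 and 1101 CPM in WT against 812, 1016 and 1198 CPM in Nell-1+/6R mice. The 2 genotypes overlapped over most of this range, and the log2 fold change was 0.07 (SE 0.10), with an interval from -0.14 to 0.28. Prkcb lies on the chromosome of Nell1, at chr7:122289104-122634402, far from Nell1 at chr7:49975350-50863289.

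Among the nPKC genes, Prkce (chr17:86167785-86657919) was 697, 798 and 837 CPM in WT and 702, 830 and 905 CPM in Nell-1+/6R mice, 2 overlapping groups. Its log2 fold change was 0.06 (SE 0.06), with an interval from -0.08 to 0.19. Prkcd (chr14:30595353-30626414) was 25.2, 39.1 and 55.0 CPM in WT and 25.0, 34.6 and 43.9 CPM in Nell-1+/6R mice. The lowest mice of both genotypes coincided and the highest was WT, and the log2 fold change was -0.10 (SE 0.18), with an interval from -0.50 to 0.30.

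Prkcq (chr2:11171905-11301226) was 8.53, 10.6 and 13.5 CPM in WT and 6.65, 8.83 and 18.5 CPM in Nell-1+/6R mice. Both the lowest and the highest mouse were Nell-1+/6R. The log2 fold change was -0.12 (SE 0.19), with an interval from -0.52 to 0.28, and it depended on single mice: without female Nell-1+/6R replicate 1, at 18.5 CPM, it was -0.32 (unadjusted p = 0.0358 in edgeR), and without male WT replicate 3 it was 0.0029. Prkch (chr12:73584796-73778185) was 2.32, 3.65 and 4.66 CPM in WT and 2.85, 4.01 and 4.60 CPM in Nell-1+/6R mice, with overlap throughout. Its log2 fold change was 0.10 (SE 0.17), with an interval from -0.27 to 0.47.

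Of the atypical genes, Prkci (chr3:30995742-31052740) was 22.4, 36.0 and 38.6 CPM in WT and 24.00, 32.4 and 42.9 CPM in Nell-1+/6R mice. The 2 ranges overlapped over most of their length, and the log2 fold change was -0.02 (SE 0.16), with an interval from -0.35 to 0.32. Prkcz (chr4:155260118-155361428) varied least of the 8, with 178, 187 and 203 CPM in WT and 171, 189 and 203 CPM in Nell-1+/6R mice. Its log2 fold change was -0.01 (SE 0.05), with the narrowest interval of the family, from -0.12 to 0.11.

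**Figure D3:**
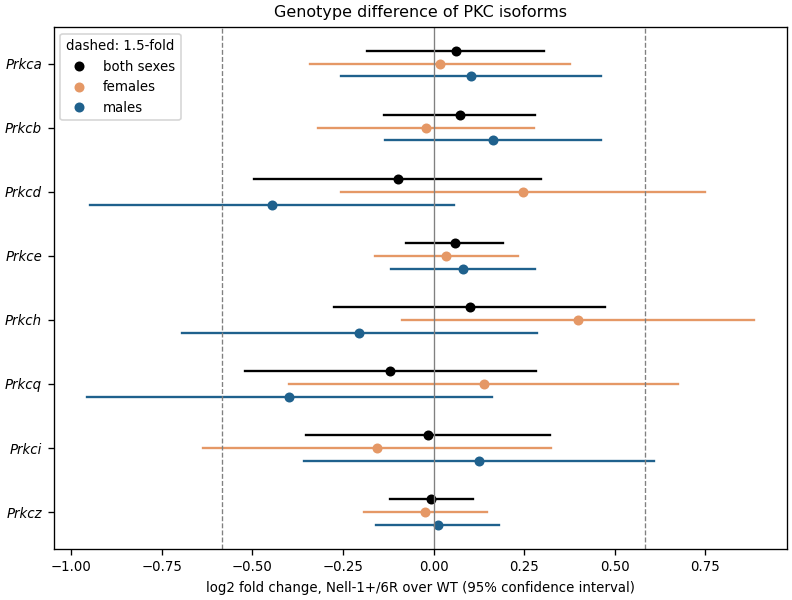
Log2 fold change of each PKC isoform, Nell-1+/6R over WT, with its 95% confidence interval, for both sexes together and for females and males from the model of 4 groups. All 8 intervals for both sexes hold 0 and stay inside the dashed lines at a 1.5-fold change, while within 1 sex those of Prkcd, Prkch, Prkcq and Prkci reach past a line.

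All 8 intervals hold 0 and stay inside a 1.5-fold change in either direction, 0.585 on the log2 scale. With single mice left out this did not hold for Prkcq and Prkcd: the interval of Prkcq ran from -0.62 to -0.02 without female Nell-1+/6R replicate 1 and reached -0.59 and -0.62 without female WT replicates 1 and 3, and that of Prkcd reached -0.59 without either of the same WT mice. Of 96 such intervals, 5 reached past that fold and 1 did not hold 0. An exact two-sided permutation test of mean log2 CPM over every split of the 12 mice into groups of 6 gave p from 0.411 for Prkce to 0.913 for Prkci, where 0.00216 is the smallest p it can give. No isoform had non-overlapping genotypes, which 0.151% of the tested genes had. In bulk tissue, fewer cells of a type and less RNA per cell cannot be told apart.

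The genes around the PKC isoforms moved little. Of 75 pathway genes in 8 lists, all tested, 38 had a higher and 37 a lower estimate in Nell-1+/6R mice, and the median log2 fold change was 0.00. At an unadjusted p under 0.05 edgeR found no higher and 1 lower gene, 1 of 75 beside 3.26% of all genes, and none passed an adjusted p of 0.05 or the study's fold threshold. In the 8 mice with low markers of choroid plexus the count was 2 of 75 beside 1.75% of all genes, and with a covariate for the balance of long and short transcripts in each mouse 6 of 75 beside 5.56%. The gene in the fit over all mice was Prkd2, protein kinase D2, a diacylglycerol-binding kinase that PKC phosphorylates. It was 6.62, 9.61 and 11.4 CPM in WT and 5.30, 6.92 and 8.52 CPM in Nell-1+/6R mice, with overlap. The log2 fold change was -0.41 (SE 0.14, unadjusted p = 0.0119, adjusted p = 1.00 in edgeR), and it ran from -0.49 to -0.32 when single mice were left out. In males alone it was -0.59 (unadjusted p = 0.0104 in edgeR), and in females alone -0.22 (unadjusted p = 0.28 in edgeR). Markers of leptomeningeal fibroblasts were also lower, 5 of 9 at an unadjusted p under 0.05 in edgeR with none at 0, and summed to 117 to 391 CPM in WT and 67.5 to 404 CPM in Nell-1+/6R mice. Their part in the value of Prkd2 was not tested.

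No other pathway gene had an unadjusted p under 0.05 in edgeR. The smallest p among the Gq alpha subunits belonged to Gnaq, which couples receptors to phospholipase C, with a log2 fold change of 0.07 (SE 0.05). Of 12 phospholipase C genes, it belonged to Plch2 at 0.15 (SE 0.09), and of 10 diacylglycerol kinases, which remove the lipid that activates PKC, to Dgkh at -0.23 (SE 0.14). The other lists gave the same picture. For maturation and turnover the first gene was Hsp90ab1, a chaperone of the folding kinase, at 0.05 (SE 0.05), and for anchors and partners Cavin2, a PKC-binding protein of caveolae, at -0.23 (SE 0.16). For substrates it was Add3, an adducin of the membrane skeleton, at -0.10 (SE 0.07). In the list of other diacylglycerol receptors and their families it was Unc13d at 0.24 (SE 0.17), a vesicle priming protein that does not itself bind diacylglycerol.

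Between the sexes, with genotype in the model, Prkcq was the only isoform with an unadjusted p under 0.05, 1 of 8 beside 4.72% of all genes. It was 9.21, 11.3 and 18.5 CPM (lowest, median, highest) in the 6 females and 6.65, 8.46 and 12.8 CPM in the 6 males. The sexes overlapped. The log2 fold change, male over female, was -0.45 (SE 0.19, unadjusted p = 0.030, adjusted p = 0.868 in edgeR). The unadjusted p went over 0.05 when any of 6 single mice was left out: female Nell-1+/6R replicate 1, where the log2 fold change was -0.26, female WT replicate 2, male WT replicate 1, or any of the 3 male Nell-1+/6R mice. With a per-mouse measure of the balance of long and short transcripts as a covariate (the length difference) it was -0.28 (unadjusted p = 0.114 in edgeR). The other 7 isoforms differed between the sexes by -0.02 to 0.15 on the log2 scale, the upper end being Prkcd, at 0.03 without male WT replicate 3.

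Prkcq was high in the mice with high markers of choroid plexus epithelium, the secretory tissue that lies against the hippocampus in the ventricle. The summed level of 6 such markers (Ttr, Kl, Folr1, Aqp1, Kcnj13 and Prlr, all 6 tested and none at 0) was 763 to 5050 CPM in 4 mice and 39.6 to 122 CPM in the other 8. The 4 mice were female Nell-1+/6R replicate 1, female WT replicates 1 and 2, and male WT replicate 3. In them Prkcq was 12.04 to 18.5 CPM, against 6.65 to 10.5 CPM in the 8 others, with no overlap. The other 7 isoforms overlapped between these mice, and of all 17937 genes tested 1.75% did not. By genotype the markers summed to 50.1 to 4532 CPM in WT and 39.6 to 5050 CPM in Nell-1+/6R mice. In the 8 mice with low markers the sex difference of Prkcq was -0.25 (unadjusted p = 0.0915) and its genotype difference -0.09 (unadjusted p = 0.535), both in edgeR. The summed level of the 9 markers of leptomeningeal fibroblasts was also highest in the 4 mice, at 223 to 404 CPM against 67.5 to 211 CPM in the 8 others, although by the mean log2 deviation of the same markers these mice overlapped. With the group means removed, Prkcq had r = 0.66 with markers of oligodendrocytes (permutation p = 0.0202, adjusted 0.0898 over 40 relations of isoforms with marker lists; rho = 0.67, permutation p = 0.0205; 0.57 without the 2 mice farthest from the median). The part of any of these lists in the values of Prkcq was not tested.

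**Figure D4:**
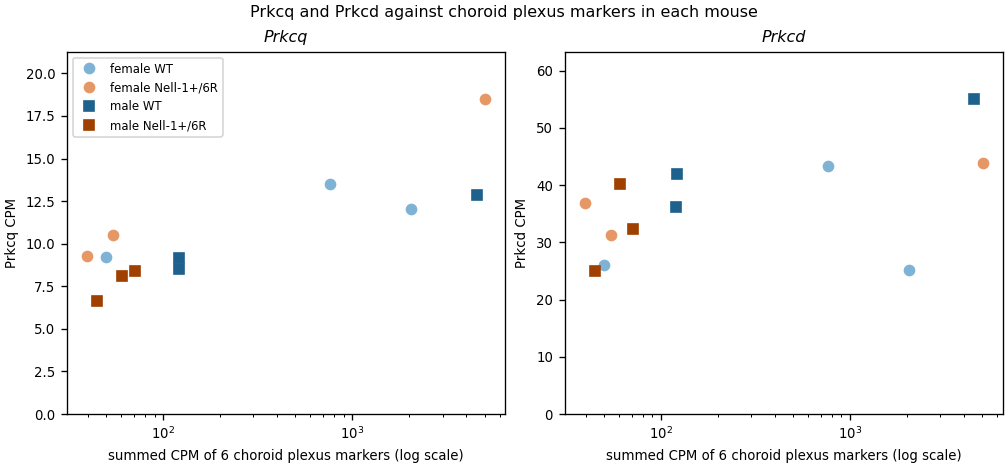
CPM of Prkcq (left) and Prkcd (right) against the summed CPM of 6 choroid plexus markers (log scale), with 1 point for each of 12 mice by sex and genotype. The 4 mice with the highest markers hold the 4 highest Prkcq values, 12.04 to 18.5 CPM, while Prkcd ranges from 25.2 to 55.0 CPM in the same mice.

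The sexes were then compared for the size of the genotype difference. No isoform passed an unadjusted p of 0.05 for the interaction in edgeR, where 3.09% of all genes did, and none an adjusted p. Prkcd came closest. In females it was 25.2, 43.3 and 26.0 CPM in the 3 WT and 43.9, 31.2 and 36.8 CPM in the 3 Nell-1+/6R mice. In males it was 42.0, 36.1 and 55.0 CPM in the 3 WT and 32.4, 40.2 and 25.0 CPM in the 3 Nell-1+/6R mice. The genotypes overlapped in both sexes, leaning up in females and down in males.

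The genotype log2 fold change of Prkcd was 0.25 (SE 0.23) in females and -0.45 (SE 0.23) in males. The difference, male minus female, was -0.69 (SE 0.33, unadjusted p = 0.0548, adjusted p = 0.987 in edgeR), with an interval from -1.40 to 0.02. DESeq2 and limma-voom put its unadjusted p at 0.0391 and 0.0390, where 2.19% and 3.04% of all genes were under 0.05, and 1.41% and 2.12% also past 1.5-fold. A fit of the males alone gave Prkcd a genotype log2 fold change of -0.44 (unadjusted p = 0.047, adjusted p = 0.969 in edgeR), with 5.12% of all genes under 0.05. Prkch and Prkcq leaned the same way, at -0.60 (SE 0.32) and -0.54 (SE 0.36), and the other 5 isoforms ran from 0.03 to 0.28, the upper end being Prkci, which went from 0.06 to 0.55 over single mice left out. The values of Prkch and Prkcq moved with the mice used too: Prkcq was at -0.17 without female Nell-1+/6R replicate 1, and in the 8 mice with low choroid plexus markers Prkch was at -0.19 and Prkcq at -0.27. Among those 8 mice the female WT group is 1 mouse, replicate 3, so these last values rest on it. Markers of thalamus and habenula, tissue next to the hippocampus, summed to 68.0 to 89.4 CPM in WT and 52.8 to 81.3 CPM in Nell-1+/6R mice over 9 tested of 10 markers with none at 0. By genotype 2 of the 9 were lower at an unadjusted p under 0.05 in edgeR, beside 3.26% of all genes in either direction. One of them, Slc17a6, which encodes a vesicular glutamate transporter, was lower by a log2 fold change of -1.23 (SE 0.15, adjusted p = 0.0035 in edgeR). With the group means removed, Prkcd had r = 0.49 with these markers (permutation p = 0.104, adjusted 0.231; rho = 0.44, permutation p = 0.154; 0.51 without the 2 mice farthest from the median), and r = 0.58 with markers of oligodendrocytes (permutation p = 0.0492, adjusted 0.164; rho = 0.59, permutation p = 0.0478; 0.42 without 2 mice). The adjustment is over the same 40 relations. The part of either list in the values of Prkcd was not tested. The 10 markers of hippocampal principal neurons were all tested and summed to 878 to 989 CPM over the 12 mice. By genotype 3 of the 10 had an unadjusted p under 0.05 in edgeR, beside the same 3.26% of all genes. Fibcd1 (log2 fold change 0.23) and Spink8 (0.25) were higher and C1ql2 (-0.33) lower in Nell-1+/6R mice, each with an adjusted p of 1.00.

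Many pairs of isoforms were correlated among mice of the same sex and genotype, as were many pairs of other genes. After the mean of each of the 4 sex and genotype groups was removed from log2 CPM, 13 of the 28 pairs of isoforms were correlated over the 12 mice at an adjusted permutation p under 0.05, 8 positively and 5 negatively, and 11 of them also by rank. These 13 are 46.4% of the pairs and each had an r of at least 0.66 in size, which 20.5% of all pairs of the 11562 genes with a mean of at least 5 CPM also reached. The permutation treats the 12 deviations as free although 4 group means were removed, so these p are somewhat too small. Prkca, Prkcb, Prkce and Prkci rose and fell together, and Prkcz, despite its small spread, went the other way.

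The closest pair was Prkca with Prkcb, with Pearson r = 0.92 (permutation p = 0.00014, adjusted 0.00131) and Spearman rho = 0.93 (permutation p = 4e-05), and r = 0.89 without the 2 mice farthest from the median of Prkca. Prkca with Prkce gave r = 0.92 (permutation p = 3e-05, adjusted 0.00084) and rho = 0.90 (permutation p = 0.00017), and r = 0.89 without 2 mice. Both pairs thus held without their extreme mice. Prkcb with Prkci reached r = 0.88 (permutation p = 0.00012, adjusted 0.00131) and rho = 0.89 (permutation p = 0.00031), and 0.86 without 2 mice.

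Prkcz ran against Prkcb, with r = -0.86 (permutation p = 0.00052, adjusted 0.00291) and rho = -0.85 (permutation p = 0.0009), and r = -0.82 without 2 mice. Prkcd went with Prkcz at r = 0.73 (permutation p = 0.00859, adjusted 0.0301) and rho = 0.70 (permutation p = 0.0143), although r fell to 0.53 without 2 mice. Prkch, with few counts, was in no such pair. Its largest r in size was -0.38, with Prkci.

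The upstream sequence of these genes is shown because their levels moved together or apart. Each is the 250 bases before a start site in RefSeq annotation of GRCm38.p6, written on the strand of the gene, with capitals on each match to the GC box GGGCGG or its reverse complement CCGCCC. Prkca, Prkcb and Prkci stand for the isoforms that rose together, and the full-length start of Prkcz for the one that went the other way. Of the 8 genes, 6 were matched, while Prkce and Prkch were not.
Prkca, chr11:108343889-108344138, minus strand: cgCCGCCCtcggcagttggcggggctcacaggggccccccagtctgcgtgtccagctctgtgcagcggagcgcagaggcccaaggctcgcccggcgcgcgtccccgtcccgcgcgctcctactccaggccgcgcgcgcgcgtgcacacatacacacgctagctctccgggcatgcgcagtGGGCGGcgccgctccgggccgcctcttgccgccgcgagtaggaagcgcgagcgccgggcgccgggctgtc
Prkcb, chr7:122288875-122289124, plus strand: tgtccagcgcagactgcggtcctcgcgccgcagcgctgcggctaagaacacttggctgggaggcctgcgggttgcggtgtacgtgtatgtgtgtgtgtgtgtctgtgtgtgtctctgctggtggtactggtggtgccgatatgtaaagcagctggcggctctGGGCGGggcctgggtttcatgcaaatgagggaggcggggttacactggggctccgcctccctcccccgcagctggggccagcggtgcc
Prkci, chr3:30995521-30995770, plus strand: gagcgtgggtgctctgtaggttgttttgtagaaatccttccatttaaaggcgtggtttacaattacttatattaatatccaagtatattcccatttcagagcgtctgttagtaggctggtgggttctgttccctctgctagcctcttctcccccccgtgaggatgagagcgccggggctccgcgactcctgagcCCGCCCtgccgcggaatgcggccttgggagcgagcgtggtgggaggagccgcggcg
Prkcz, chr4:155361429-155361678, minus strand: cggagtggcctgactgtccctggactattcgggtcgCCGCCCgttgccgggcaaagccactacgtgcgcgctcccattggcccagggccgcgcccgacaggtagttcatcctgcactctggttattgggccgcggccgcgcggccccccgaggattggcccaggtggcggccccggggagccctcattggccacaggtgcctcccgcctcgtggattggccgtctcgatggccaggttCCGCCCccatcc

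All 4 windows hold a GC box, 2 in Prkca, 1 in Prkcb, 1 in Prkci and 2 in Prkcz, as did 32.7% of the 32851 windows in the table. The motif did not set Prkcz apart from the others. GC content was 76.8% in Prkca, 65.2% in Prkcb, 56.4% in Prkci and 70.8% in Prkcz, beside a median of 52.4% over all windows. The letters CCAAT, searched on both strands, were found 5 times in the full-length Prkcz window and in none of the other 3, and at least once in 33.8% of all windows. None of the 4 windows held TATAAA, present in 12.4% of all windows, or TGACG, letters of the cyclic AMP response element, present in 17.8%, on either strand. The table also holds 2 Prkcz windows at internal starts, chr4:155345790-155346039 and chr4:155344750-155344999, and these had no CCAAT and 1 TGACG each, so the CCAAT matches belong to the full-length start alone. These matches describe the letters and nothing else.

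A measure of the libraries moved with 5 of the 8 isoforms and with a large share of all genes. In each mouse the median deviation of the 2264 genes with the shortest transcripts (up to 2174 bases) was taken from that of the 2264 with the longest (5614 bases or more), among genes with a mean of at least 5 CPM. This length difference ran from -0.21 to 0.36 on the log2 scale over the mice. The 5 isoforms had an r of at least 0.76 in size with it, as did 35.9% of all 11562 genes. Prkcb followed it with r = 0.95 (permutation p = 2e-05, adjusted 8e-05 over 8 isoforms) and rho = 0.94 (permutation p = 4e-05), and 0.94 without the 2 mice farthest from the median. Prkci gave r = 0.93 (permutation p = 2e-05, adjusted 8e-05) and rho = 0.95 (permutation p = 3e-05), and 0.89 without 2 mice.

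**Figure D5:**
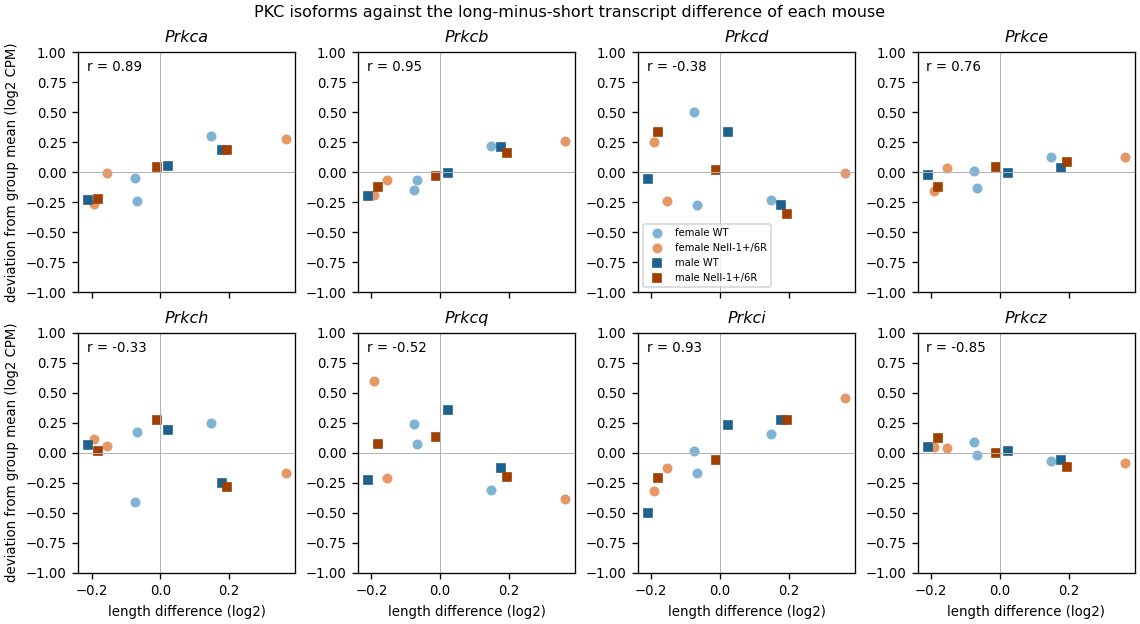
Deviation of each PKC isoform from the mean of its sex and genotype group (log2 CPM) against the long-minus-short transcript difference of the same mouse (log2), with 1 point for each of 12 mice. Prkca, Prkcb, Prkce and Prkci climb with the length difference (r from 0.76 to 0.95), Prkcz descends (r = -0.85), and Prkcd, Prkch and Prkcq scatter.

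Prkca gave r = 0.89 (permutation p = 0.00012, adjusted 0.00032) and rho = 0.86 (permutation p = 0.00067), and 0.88 without 2 mice. Prkce gave r = 0.76 (permutation p = 0.00482, adjusted 0.00771) and rho = 0.73 (permutation p = 0.00858), and 0.65 without 2 mice. Prkca and Prkce are themselves among the genes with the longest transcripts, while Prkcb and Prkci are not. Prkcz gave r = -0.85 (permutation p = 0.00045, adjusted 0.0009) and rho = -0.88 (permutation p = 0.00034), and -0.81 without 2 mice. For Prkcd, Prkch and Prkcq r was -0.38, -0.33 and -0.52, with adjusted permutation p of 0.251, 0.297 and 0.107.

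Markers of glial cells gave few relations beyond those of genes in general. Of the same 40 relations 4 passed an adjusted permutation p of 0.05 and none by rank. Each of the 4 had an r of at least 0.77 in size, which 7.9% of the relations of all 11562 genes with the same 5 lists also reached (markers of a list left out), so 4 of 40 is near the background and the values are given as a description. With the mean deviation of 7 oligodendrocyte markers, the cells that make myelin, Prkcb had r = -0.78 (permutation p = 0.00308, adjusted 0.0342) and rho = -0.71 (permutation p = 0.0114, adjusted 0.128), and -0.68 without 2 mice. Prkcz had r = 0.80 with them (permutation p = 0.002, adjusted 0.0342) and rho = 0.76 (permutation p = 0.00547, adjusted 0.128), and 0.69 without 2 mice. With 6 markers of microglia, the resident immune cells of the brain, Prkci had r = -0.77 (permutation p = 0.00342, adjusted 0.0342) and rho = -0.72 (permutation p = 0.0108, adjusted 0.128), and -0.61 without 2 mice. With 6 markers of astrocytes, Prkch had r = -0.83 (permutation p = 0.002, adjusted 0.0342) and rho = -0.67 (permutation p = 0.0212, adjusted 0.128), and -0.89 without 2 mice. All markers of the 3 lists were tested and none was at 0. The oligodendrocyte markers summed to 3843 to 6371 CPM in WT and 3025 to 6630 CPM in Nell-1+/6R mice, the microglia markers to 418 to 454 and 391 to 466 CPM, and the astrocyte markers to 3455 to 4458 and 3099 to 4551 CPM. The part of these cells in the variation of the isoforms was not tested.

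The same pattern ran through the whole transcriptome. The first principal component of the deviations of all 11562 genes held 47.9% of their variance and had r = 0.95 with the length difference, and of 11561 other genes 1854 had r above 0.8 with Prkcb and 1086 had r below -0.8. When a straight line on the length difference was taken out of each isoform, r fell to 0.53 for Prkca with Prkcb, -0.00 for Prkcb with Prkci and -0.31 for Prkcb with Prkcz. It was 0.83 for Prkca with Prkce and 0.83 for Prkcd with Prkcz. The part of the length difference in the shared variation of the isoforms was not tested. With the length difference, taken from the overall mean, as a covariate, Prkcb had a genotype log2 fold change of 0.12 (SE 0.04, unadjusted p = 0.0122, adjusted p = 0.858 in edgeR), the 1 isoform of 8 under 0.05, where 5.56% of all genes tested were under it.

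Of all genes with a mean of at least 5 CPM, those nearest to each isoform over the 12 mice were listed by Pearson r of the same deviations, as a description. Prkca went with Anks1b, a postsynaptic scaffold gene, at 0.99, and with Zfp236 and Hectd4 at 0.98 each. Prkcb went with Rabep1, an effector of early endosome fusion, and St8sia3, a brain sialyltransferase, at 0.99 each, and with 0610010F05Rik at 0.99. Prkci went with Chfr, Zdhhc23 and Arhgef12, all at 0.98.

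Prkce had Gorab at 0.97, Ppp1r12b, a myosin phosphatase subunit, at 0.96 and Cebpz at 0.96. Prkcz went with Prkd2, the pathway gene named above, at 0.97, and with the ribosomal protein gene Rpl5 and the RNA polymerase II subunit gene Polr2c at 0.97 each. Prkcd had Pcx, pyruvate carboxylase, at 0.97, Cercam at 0.94 and Bcar3 at 0.94. Prkcq went with Cdr2 at 0.98, Rsph1, a radial spoke gene of motile cilia, at 0.97 and Cd82, a tetraspanin gene, at 0.97. Prkch had Mkks at 0.92, Cttn, the gene of the actin-binding protein cortactin, at 0.91 and the Y-linked Eif2s3y at 0.90. Eif2s3y was 27.6 to 36.6 CPM in males and 0.00 to 0.0682 CPM in females, so that its likeness to Prkch is not one over expressed levels in all 12 mice. In all, 33 genes had r above 0.8 with Prkch.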

How the data were processed

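Hippocampal RNA of 12 mice was sequenced as single reads of 50 bases; per the labels the authors aligned them with HISAT2 2.1.0 to mm10 and deposited raw gene counts from featureCounts 2.0.1 (processing notes), with no normalization, for 27179 Entrez identifiers. Of these, 25275 were named from RefSeq (GRCm38.p6) and 17 from GENCODE M21. Genes with at least 0.2 CPM in at least 2 mice, 17937 in all, were tested with edgeR 4.0.16 in R 4.3.3 (TMM factors, sex and genotype, quasi-likelihood, Benjamini-Hochberg over all tested genes); interaction and within-sex contrasts used a model of 4 groups. The study's methods used limma-voom. DESeq2 1.42.0, limma 3.58.1, other scalings, filters and samples were alternatives. CPM used TMM factors. Log2 CPM had a prior count of 2, and correlations 100000 permutations (scipy 1.17.1). The fit was tested on simulated data. Confidence intervals come from the quasi-likelihood standard errors.

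The isoforms, gene lists and marker lists were chosen with earlier results of these data known. Named genes are all isoforms, Nell1, the smallest p and any called gene of each pathway list, and the 3 nearest genes of each isoform. Also named are genes sharing exons with an isoform, overlapping genes with counts, the pseudogene Prkcz2, and marker lists set beside a result. An item of this rule is not reported here.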

Additional observations from a re-analysis of the deposited data

Results flagged for a closer look

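In the 6 Nell-1+/6R mice, Prkcq was 18.5 CPM in female replicate 1, while the next mouse was at 10.5 CPM. That gap is 0.674 of the group's whole range, above Dixon's critical value for 6 samples at 95%. It was the 1 such mouse in 16 isoform and genotype groups examined, where chance alone marks about 1 in 20. The same mouse had the highest choroid plexus markers of the 12.

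For Prkcd, all 3 female Nell-1+/6R mice lay above the mean log2 CPM of the female WT mice and all 3 male Nell-1+/6R mice below that of the male WT mice. The test of this difference, the interaction, gave -0.69 (SE 0.33, unadjusted p = 0.0548 in edgeR) and missed the threshold.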

How the results depend on the processing

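No isoform passed an adjusted p of 0.05 for genotype, sex or interaction under any alternative that was run. The length difference and the mice with low choroid plexus markers were chosen as alternatives after seeing the data. At an unadjusted p under 0.05, the count of isoforms for genotype went from 0 to 1 in males alone (Prkcd; 5.12% of all genes) and with the length difference as covariate (Prkcb; 5.56%), and ran from 0 to 1 when single mice were left out (1 without female Nell-1+/6R replicate 1). For sex it went from 1 to 0 with the length difference and in the mice with low choroid plexus markers, and ran from 0 to 1 over single mice. For the interaction it went from 0 to 1 with DESeq2 (2.19% of all genes) and limma-voom (3.04%), also past 1.5-fold (1.41% and 2.12%), and ran from 0 to 1 over single mice by both rules; Prkcd passed when the mouse numbered 2 of any of the 4 groups was left out, and Prkch without the first of the male mutants. Pathway genes at that p went from 1 to 6 with the length difference (5.56% of all genes) and to 2 in the mice with low choroid plexus markers (1.75%), and ran from 1 to 3 over single mice. The causes were not tested.

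Estimates near 0 changed sign. For genotype these were Prkcb (-0.017), Prkcd (0.25) and Prkcq (0.14) in females alone, and Prkch (-0.20), Prkci (0.13) and Prkcz (0.019) in males alone. With the length difference it was Prkci (0.048), and in mice with low choroid plexus markers Prkch (-0.021), Prkci (0.086) and Prkcz (0.022). For sex these were Prkca (-0.045), Prkcb (-0.015), Prkci (-0.12) and Prkcz (0.020) with the length difference, and Prkca (-0.087), Prkcb (-0.0003), Prkch (-0.11), Prkci (-0.074) and Prkcz (0.022) with low choroid plexus markers. For the interaction these were Prkca (-0.088) and Prkce (-0.025) with the length difference.

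Over single mice left out, genotype ranged from 0.0003 to 0.14 for Prkca, 0.018 to 0.13 for Prkcb, 0.032 to 0.095 for Prkce, -0.20 to 0.027 for Prkcd, -0.013 to 0.19 for Prkch, -0.32 to 0.0029 for Prkcq, -0.13 to 0.068 for Prkci and -0.028 to 0.018 for Prkcz. Sex ranged from 0.028 to 0.17 for Prkca, 0.053 to 0.17 for Prkcb, 0.033 to 0.26 for Prkcd, 0.059 to 0.13 for Prkce, -0.57 to -0.26 for Prkcq, -0.068 to 0.13 for Prkch, -0.007 to 0.20 for Prkci and -0.046 to 0.0005 for Prkcz, and the interaction from 0.069 to 0.33 for Prkcb, -0.99 to -0.51 for Prkcd, -0.76 to -0.42 for Prkch, -0.72 to -0.17 for Prkcq, 0.057 to 0.55 for Prkci, -0.078 to 0.23 for Prkca, -0.030 to 0.12 for Prkce and -0.021 to 0.093 for Prkcz.

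Replicate numbers did not pair the mice: the deviations of same-numbered mice of a sex had r from -0.54 to 0.52. With the replicate block the count of isoforms at an unadjusted p under 0.05 was 0, and 1 pathway gene passed. Prkch, with 30 to 63 counts a mouse, is limited by depth.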
